A study of Mus musculus with 15 samples.

Results

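The enzymes described here turn arachidonic acid, a fatty acid freed from membranes, into leukotrienes, prostanoids and related lipid mediators. They are 10 genes chosen by name for their place in these pathways (Alox15, Alox5, Alox5ap, Ltc4s, Lta4h, Tbxas1, Ptgs1, Ptgs2, Hpgds and Ptges) out of 25101 genes in the count tables, and all 10 were found there. Messenger RNA was measured in 2 libraries of bmEos, cells of BALB/c mice grown from unselected bone marrow for 14 days towards eosinophils. Stem cell factor and FLT3 ligand were present on days 0 to 3 (100 ng/mL each). Interleukin 5, which drives eosinophil growth, followed on days 4 to 14 (10 ng/mL). No genetic change or further treatment is named. The labels do not say whether the 2 libraries came from separate cultures or animals. Beside them stood 2 count tables re-analysed by the authors from other studies, 1 library taken as macrophages and 1 taken as neutrophils. These carry a run number only, and the peak lists with the nearest run numbers are named mBMDM and Neut. The sources used here do not name their strain, origin or preparation.

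Arachidonic acid is used by several branches. 5-lipoxygenase (Alox5), helped by its membrane partner FLAP (Alox5ap), makes leukotriene A4, which leukotriene C4 synthase (Ltc4s) joins to glutathione and leukotriene A4 hydrolase (Lta4h) turns into leukotriene B4. The cyclooxygenases (Ptgs1 and Ptgs2) make prostaglandin H2, from which thromboxane synthase (Tbxas1), the hematopoietic prostaglandin D synthase (Hpgds) and the inducible prostaglandin E synthase (Ptges) make their products. Alox15 encodes a separate lipoxygenase, which in mice adds oxygen mainly at another carbon of arachidonic acid than the human enzyme does. Eosinophils are known as a source of cysteinyl leukotrienes, which begin with leukotriene C4, and neutrophils as a source of leukotriene B4.

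The libraries held 40306679 and 30465490 counts in bmEos, 106940777 in the macrophage library and 6390310 in the neutrophil library, so that 3 counts equal 0.0744, 0.0985, 0.0281 and 0.469 CPM (the count of a gene scaled to the total of its library). The 8 eosinophil markers summed to 10700 and 10888 CPM in bmEos, 3.02 CPM in the macrophage library and 320 CPM in the neutrophil library. Macrophage markers stood above both bmEos libraries in the macrophage library for 9 of 10 genes, but all 10 also reached 1 CPM in bmEos, at 4.43% (C1qb) to 120% (Mrc1) of the macrophage library. Neutrophil markers stood above both bmEos libraries in the neutrophil library for only 5 of 10 genes, and summed to 2259 and 1954 CPM in bmEos, 118 CPM in the macrophage library and 2462 CPM in the neutrophil library. The neutrophil library stood apart in another way. Its top gene took 0.120% of its counts, against 0.412% to 0.806% in the other libraries, and 6 housekeeping genes, chosen after their values were seen, were 4.54-fold (B2m) to 16.7-fold (Ftl1) higher in bmEos than in it. The part of this in the values below was not tested, and each member's difference from the neutrophil library is therefore also given scaled by these 6 genes. In such bulk samples, fewer cells of a type and less RNA per cell cannot be told apart. With 1 library in each outside group there is no test, and a gene was counted as higher or lower when both bmEos libraries lay at least 4-fold above or below the outside library. Fold intervals are exact 95% intervals and cover counting error only.

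In CPM, 7 members passed this rule against an outside library, and 6 of them have an entry in the RefSeq promoter table (GRCm38.p6). Each outside library came from another study, so differences of cell type and of study cannot be told apart. For these 6 members, the stretches of 150 bases before the start of transcription are shown. They are written 5′ to 3′ on the strand of the gene, and capitals mark a match to a searched motif.
Alox5 (chr6:116461179-116461328, minus strand): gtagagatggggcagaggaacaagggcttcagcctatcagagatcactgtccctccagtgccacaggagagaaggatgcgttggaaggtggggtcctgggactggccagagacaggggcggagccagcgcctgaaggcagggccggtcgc
Ltc4s (chr11:50238533-50238682, minus strand): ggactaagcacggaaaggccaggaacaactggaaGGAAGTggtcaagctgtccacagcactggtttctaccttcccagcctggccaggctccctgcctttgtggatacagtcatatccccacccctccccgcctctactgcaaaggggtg
Ptgs1 (chr2:36230276-36230425, plus strand): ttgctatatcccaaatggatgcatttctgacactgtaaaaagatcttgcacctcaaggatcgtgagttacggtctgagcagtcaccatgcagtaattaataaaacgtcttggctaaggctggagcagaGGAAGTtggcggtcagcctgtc
Ptgs2 (chr1:150099881-150100030, plus strand): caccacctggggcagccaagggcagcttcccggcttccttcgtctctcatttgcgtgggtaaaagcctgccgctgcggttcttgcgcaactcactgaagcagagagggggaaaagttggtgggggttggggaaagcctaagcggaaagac
Tbxas1 (chr6:38918836-38918985, plus strand): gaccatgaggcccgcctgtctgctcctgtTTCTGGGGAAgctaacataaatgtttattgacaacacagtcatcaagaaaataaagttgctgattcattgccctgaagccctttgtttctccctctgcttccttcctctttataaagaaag
Hpgds (chr6:65144731-65144880, minus strand): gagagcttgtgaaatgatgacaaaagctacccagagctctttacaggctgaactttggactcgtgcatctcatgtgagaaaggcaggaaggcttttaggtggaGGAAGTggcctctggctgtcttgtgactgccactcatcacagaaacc
Both strands were searched for GGAAGT, the core bound by PU.1 and other ETS factors, for AGATAA, which binds factors of the GATA family, for TTCNNNGAA, a STAT5-type site, and for TTCNNNNGAA, a STAT6-type site. GGAAGT occurred in the windows of Ltc4s (bases 116 to 111 before the start), Ptgs1 (22 to 17) and Hpgds (47 to 42), and in 13.6% of all 32851 promoter windows of this length. The STAT6-type match of Tbxas1 lay 121 to 112 bases before the start, and 3.17% of all windows held such a match. AGATAA, found in 5.65% of all windows, and TTCNNNGAA, found in 4.09%, had no match in the 6 windows. A match describes letters only.

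Against the macrophage library, the bmEos libraries were higher in the lipoxygenases and cyclooxygenases and lower in leukotriene C4 synthase. By the 4-fold rule 4 of 10 members were higher (Alox15, Alox5, Ptgs1 and Ptgs2), where 13.4% of 12745 genes tested were, and 1 of 10, Ltc4s, was lower, where 5.68% were. The median log2 fold of the members was 1.00, beside 0.06 over all genes tested. The members were chosen with earlier results of these data known, so such shares and medians describe them and test nothing. Lta4h, Alox5ap, Tbxas1, Hpgds and Ptges did not reach 4-fold. Against the neutrophil library 3 of 10 were higher (Alox15, Tbxas1 and Hpgds), where 15.8% of 12978 genes were, and 0 of 10 were lower, where 8.96% were. Their median log2 fold was 1.49, beside -0.07 over all genes tested. Scaled by the 6 housekeeping genes, only Alox15 stayed past 4-fold above the neutrophil library (1.65% of all genes did). Then 5 members, Alox5, Ltc4s, Lta4h, Ptgs1 and Ptges, were lower by the 4-fold rule (71.3% of all genes). In CPM, without that scaling, Alox15 was the only member past the rule in both comparisons. The share of all genes past it in both was not computed.

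**Figure D1:**
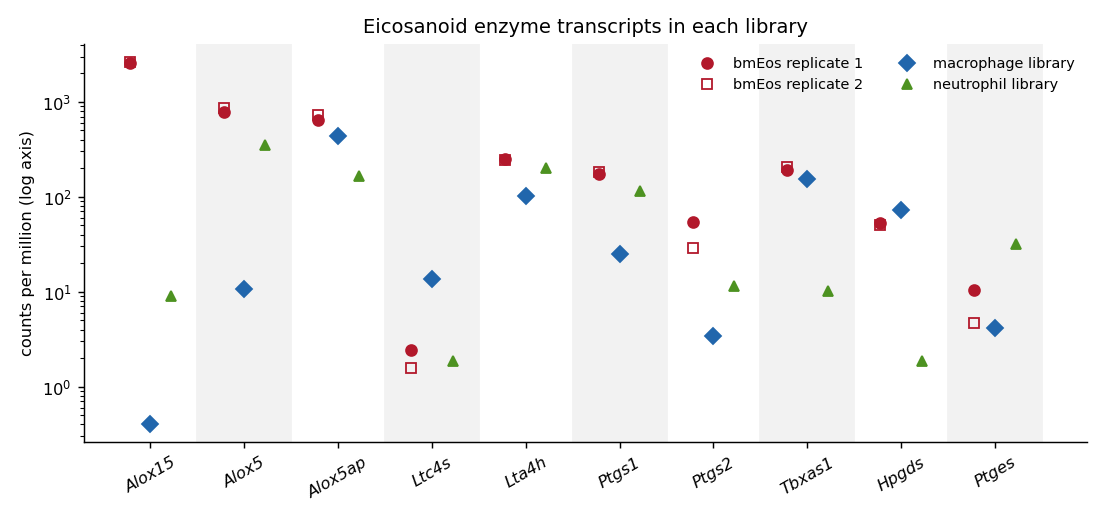
Level of each enzyme gene in CPM on a log axis, in bmEos replicate 1 (filled circle) and replicate 2 (open square), the macrophage library (diamond) and the neutrophil library (triangle). Alox15 stands at 2544 and 2622 CPM in bmEos and at 0.402 and 9.08 CPM in the macrophage and neutrophil libraries; levels are not scaled by gene length, so they compare libraries and not genes.

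Among the 10 members Alox15 had the largest fold in both comparisons. It stood at 2544 and 2622 CPM in bmEos, against 0.402 CPM (43 counts, interval 0.291 to 0.542) in the macrophage library and 9.08 CPM (58 counts, 6.89 to 11.7) in the neutrophil library. The bmEos libraries lay close together and both outside libraries far below them. The folds over the macrophage library were 6327 (4696 to 8742) and 6521 (4841 to 9012), and those over the neutrophil library were 280.3 (217 to 369) and 289 (223 to 381). Scaled by housekeeping genes, the fold over the neutrophil library was 28.3. Among 13200 genes with 1 CPM or more in any library, Alox15 ranked 3 for the log2 difference from the macrophage library and 15 for that from the neutrophil library, with a pseudocount of 1 CPM. The neutrophil library also held eosinophil markers, at 0.351% (Ccr3) to 17.3% (Siglecf) of their bmEos level, and Alox15 stood there at 0.351% of its bmEos level. The part of these markers in the low Alox15 count was not tested.

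The 5 genes whose pair of differences lay nearest to that of Alox15, over 4 libraries of 3 cell types, were Ccr3, Cyp11a1, Car4, Epx and Arg1. Ccr3 encodes the eotaxin receptor and Epx eosinophil peroxidase, while Cyp11a1 encodes the enzyme that opens steroid synthesis, Car4 a carbonic anhydrase and Arg1 an arginase. Distances ran from 1.91 (Ccr3) to 2.39 (Arg1) on the log2 scale, so none was very near. Cyp11a1 stood at 525 and 545 CPM in bmEos, against 0.0374 CPM in the macrophage library and 0 in the neutrophil library.

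Alox5 separated bmEos from the macrophage library, but much less from the neutrophil library. It stood at 779 and 861 CPM in bmEos, against 10.6 CPM in the macrophage library and 355 CPM in the neutrophil library. The bmEos libraries were 73.4-fold (69.1 to 77.9) and 81.1-fold (76.4 to 86.1) above the macrophage library. Over the neutrophil library the folds were 2.20 and 2.43. Scaled by housekeeping genes, the direction turned, and the neutrophil library was 4.35-fold higher.

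Alox5ap, unlike its partner Alox5, differed little between bmEos and the macrophage library. It stood at 640 and 721 CPM in bmEos, against 435 CPM in the macrophage library and 166 CPM in the neutrophil library. The bmEos libraries were thus the highest, at 1.47-fold and 1.66-fold the macrophage level. Over the neutrophil library the folds were 3.86 (3.63 to 4.11) and 4.35 (4.09 to 4.63), so that 1 replicate fell short of 4-fold, while scaling by TMM, DESeq2 size factors or the upper quartile put both past it. Scaled by housekeeping genes the neutrophil library was higher, 2.45-fold.

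Ltc4s was the only member that was lower in bmEos than in the macrophage library by the 4-fold rule. It stood at 2.43 CPM (98 counts, interval 1.97 to 2.96) and 1.58 CPM (48 counts, 1.16 to 2.09) in bmEos, against 13.8 CPM (1471 counts, 13.1 to 14.5) in the macrophage library and 1.88 CPM (12 counts, 0.970 to 3.28) in the neutrophil library. The macrophage library was 5.66-fold and 8.73-fold above the bmEos libraries, with no overlap of the intervals. The folds over the neutrophil library, 1.29 (0.709 to 2.59) and 0.839 (0.439 to 1.74), lay on either side of 1, so no difference was detectable at this depth. With housekeeping scaling the neutrophil library was 9.63-fold higher in Ltc4s, past the 4-fold rule. Of the 10 macrophage markers, C1qa, C1qb and C1qc stood in bmEos at 8.98%, 4.43% and 13.8% of the macrophage library and the other 7 at 27.5% (Csf1r) to 120% (Mrc1), while Ltc4s stood at 14.6%. Their part in the Ltc4s counts of bmEos was not tested.

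Lta4h did not reach 4-fold in either comparison in CPM. It stood at 251 and 241 CPM in bmEos, against 103 CPM in the macrophage library and 199 CPM in the neutrophil library. The folds were 2.45 and 2.35 over the macrophage library and 1.26 and 1.21 over the neutrophil library. Scaled by housekeeping genes, the neutrophil library was 8.13-fold higher, past the 4-fold rule.

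**Figure D2:**
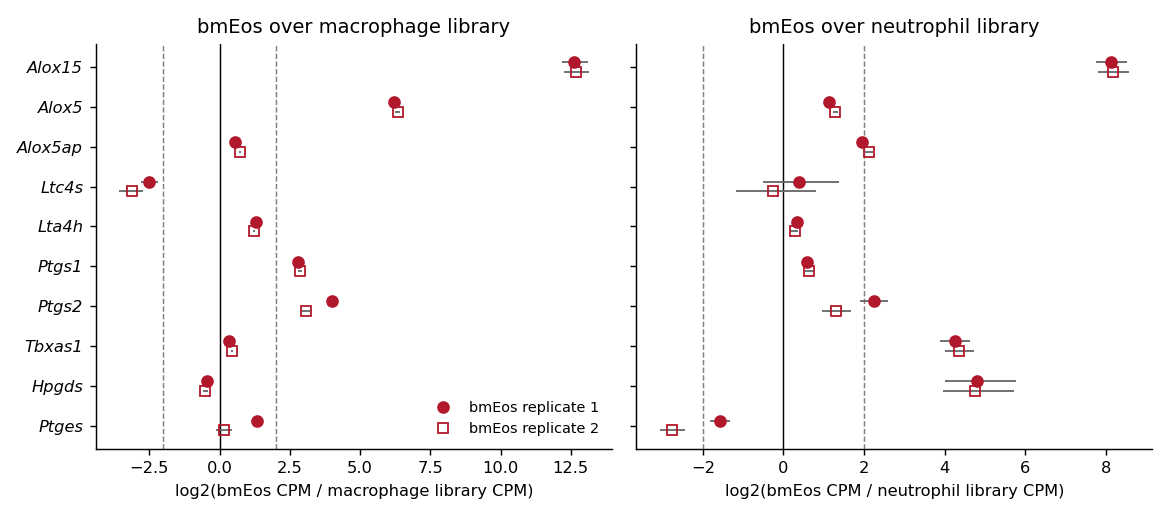
Log2 fold of each enzyme gene in bmEos replicate 1 (filled circle) and replicate 2 (open square) over the macrophage library (left) and the neutrophil library (right), with horizontal lines for the exact 95% counting interval and dashed lines at 4-fold. Over the macrophage library both replicates of Alox15, Alox5, Ptgs1 and Ptgs2 lie right of the dashed lines and both of Ltc4s left of them, and over the neutrophil library both of Alox15, Tbxas1 and Hpgds lie right of them.

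Both cyclooxygenase genes were higher in bmEos than in the macrophage library. Ptgs1, the constitutive form, stood at 174 and 181 CPM in bmEos, against 24.9 CPM in the macrophage library and 116 CPM in the neutrophil library. The folds over the macrophage library were 6.99 (6.69 to 7.32) and 7.25 (6.92 to 7.60), and those over the neutrophil library were 1.499 and 1.55. With housekeeping scaling the neutrophil library was 6.58-fold higher in Ptgs1. Ptgs2, the inducible form, stood at 54.5 and 28.6 CPM in bmEos, against 3.40 CPM in the macrophage library and 11.6 CPM in the neutrophil library. Its folds were 16.0 and 8.41 over the macrophage library and 4.70 and 2.47 over the neutrophil library, where replicate 1 alone passed 4-fold. With housekeeping scaling the neutrophil library was 2.95-fold higher in Ptgs2.

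Markers of other cells differed between the libraries too. Megakaryocyte and stromal sums were higher in bmEos than in either outside library, while the mast cell and basophil sum was highest in the neutrophil library. Megakaryocyte and platelet markers, from cells known for Ptgs1 and Tbxas1, summed to 726 and 777 CPM in bmEos, 356 CPM in the macrophage library and 104 CPM in the neutrophil library. Of the 7 tested, 5 were higher and 1 lower (Vwf) than in the macrophage library, and 4 were higher than in the neutrophil library. Of all genes tested, 13.4% were higher and 5.68% lower than in the macrophage library, and 15.8% were higher than in the neutrophil library. The same shares stand beside the lists that follow. Itga2b, an integrin chain of platelets, stood at 307 and 310 CPM in bmEos, against 0.589 CPM in the macrophage library and 9.86 CPM in the neutrophil library. Stromal and endothelial markers summed to 2577 and 764 CPM in bmEos, 273 CPM in the macrophage library and 90.9 CPM in the neutrophil library, with 2 of 6 tested higher than in the macrophage library and 5 of 6 higher than in the neutrophil library. Mast cell and basophil markers summed to 229 and 152 CPM in bmEos, 12.2 CPM in the macrophage library and 377 CPM in the neutrophil library. Hdc made up most of the bmEos and neutrophil sums, at 149 and 104 CPM in bmEos and 300 CPM in the neutrophil library. Of this list 3 of 5 tested were higher than in the macrophage library and 2 of 5 higher than in the neutrophil library. The part of these cells in the values of Ptgs1, Ptgs2 and Tbxas1 was not tested.

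Of the synthases that end the prostanoid branch, Tbxas1 and Hpgds were shared by bmEos and the macrophage library. Tbxas1 stood at 193 and 207 CPM in bmEos, against 152 CPM in the macrophage library and 10.2 CPM (65 counts) in the neutrophil library. It was 1.27-fold and 1.36-fold above the macrophage library and 19.0-fold (14.9 to 24.6) and 20.4-fold (16.0 to 26.4) above the neutrophil library. Tbxas1 overlaps 7 annotated genes, among them the protein-coding Hipk2, and whether their reads were counted for it was not tested. Hpgds stood at 52.6 and 50.8 CPM in bmEos, against 72.1 CPM in the macrophage library and 1.88 CPM (12 counts) in the neutrophil library. Its folds were 0.730 and 0.705 over the macrophage library and 28.0 (16.0 to 54.3) and 27.1 (15.4 to 52.5) over the neutrophil library. With housekeeping scaling the folds over the neutrophil library were 1.96 for Tbxas1 and 2.74 for Hpgds, short of 4-fold but in the same direction. In CPM, macrophage markers moved the same way, with 7 of 10 higher in bmEos than in the neutrophil library, where 15.8% of all genes were. They summed to 5602 and 6585 CPM in bmEos, against 898 CPM in the neutrophil library. These markers were not scaled by housekeeping genes, a scaling that moved the median log2 fold of all genes by -3.33. Their part in the values of Tbxas1 and Hpgds was not tested.

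Ptges went the other way against neutrophils. It stood at 10.5 and 4.66 CPM in bmEos, against 4.17 CPM in the macrophage library and 31.5 CPM in the neutrophil library. The neutrophil library was 3.00-fold and 6.75-fold above the bmEos libraries, so that 1 of 2 replicates passed 4-fold, and it was 45.2-fold above them with housekeeping scaling. The fold over the macrophage library was 2.51 (2.19 to 2.87) in replicate 1 and 1.12 (0.919 to 1.35) in replicate 2.

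The balance between branches was read as the log2 ratio of the counts of 2 genes within 1 library. Library size cancels in it, and gene length cancels when the ratio is compared between libraries. For Alox15 over Alox5 the ratio was 1.66 ± 0.07 in bmEos (SD, n = 2), against -4.72 in the macrophage library and -5.29 in the neutrophil library, a shift of 6.38 and 6.95. For Alox5ap over Alox5 it was -0.27 ± 0.02 in bmEos, against 5.36 in the macrophage library and -1.10 in the neutrophil library. For each Alox5ap transcript, the bmEos libraries held 49.4-fold more Alox5 transcripts than the macrophage library.

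Between the fates of leukotriene A4, Ltc4s over Lta4h gave -6.98 ± 0.40 in bmEos, against -2.90 in the macrophage library and -6.73 in the neutrophil library. The bmEos value lay 4.08 below the macrophage value, a 16.9-fold shift towards Lta4h. It differed from the neutrophil value by less than the SD of the bmEos pair. This ratio covers Ltc4s alone and leaves out the other glutathione transferases, such as Mgst2, given below. Ptgs1 over Ptgs2 was 2.17 ± 0.69 in bmEos, against 2.87 in the macrophage library and 3.33 in the neutrophil library. Only replicate 1, at 1.68, stood well apart, since replicate 2 was at 2.66. Hpgds over Tbxas1 was -1.95 ± 0.11 in bmEos, against -1.08 in the macrophage library and -2.44 in the neutrophil library. For Ptges over Hpgds the ratio was -2.89 ± 0.79 in bmEos, against -4.11 in the macrophage library and 4.07 in the neutrophil library, 6.95 above bmEos.

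**Figure D3:**
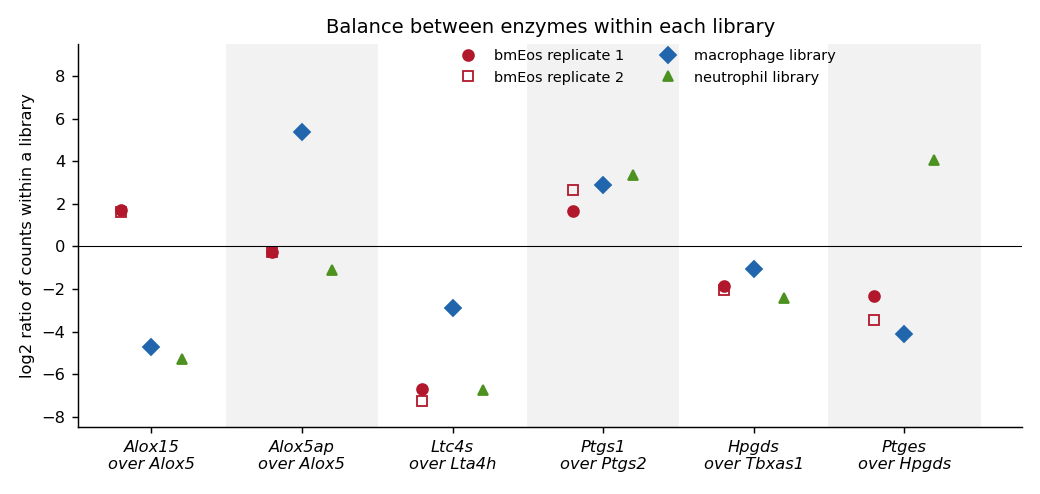
Log2 ratio of the counts of 2 enzyme genes within each library, for 6 pairs, in bmEos replicate 1 (filled circle) and replicate 2 (open square), the macrophage library (diamond) and the neutrophil library (triangle). Alox15 over Alox5 is above 0 only in bmEos, Ltc4s over Lta4h is highest in the macrophage library at -2.90, and Ptges over Hpgds is above 0 only in the neutrophil library at 4.07.

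The bmEos replicates differed for a few members. Of 11908 genes with 1 CPM or more in both, 862 (7.24%) lay 1.5-fold or more apart, and 804 of these (6.75% of all) were higher in replicate 1. Among the members these were Ptges, 2.25-fold higher in replicate 1 (1.85 to 2.74), Ptgs2, 1.90-fold (1.76 to 2.06), and Ltc4s, 1.54-fold (1.08 to 2.23). The other 7 members lay between 0.888-fold (Alox5ap) and 1.04-fold (Lta4h). Stromal and endothelial markers summed to 2577 CPM in replicate 1 and 764 CPM in replicate 2, with 8 of 9 higher in replicate 1. The collagen gene Col1a1 was 4.26-fold higher there, and the proteoglycan gene Lum was at 0 in both. Mast cell and basophil markers summed to 229 CPM in replicate 1 and 152 CPM in replicate 2, with 8 of 9 higher in replicate 1. Cpa3, a mast cell protease, was 2.19-fold and Ms4a2, a chain of the IgE receptor, 1.81-fold higher there, while the mast cell protease gene Mcpt4 was at 0 in both. Neutrophil markers summed to 2259 and 1954 CPM, with 9 of 10 higher in replicate 1. In the other lists 2 of 8 eosinophil markers, 4 of 10 macrophage markers and 2 of 8 megakaryocyte and platelet markers were higher in replicate 1. These counts of markers take a difference of any size, and the share of all genes higher in replicate 1 by any amount was not computed. Some markers had few reads, such as Cma1 and Dcn, each at 6 and 4 counts, with an interval of 0.269 to 5.46 for the ratio. The part of these cells in the replicate difference of Ptges, Ptgs2 and Ltc4s was not tested.

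**Figure D4:**
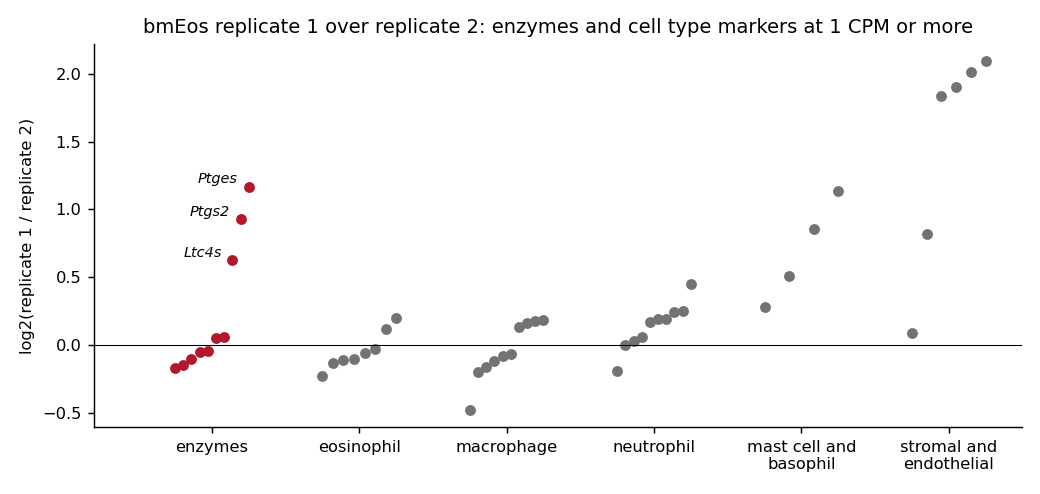
Log2 ratio of bmEos replicate 1 over replicate 2 for the enzyme genes (red) and for markers of 5 cell types (grey), for genes at 1 CPM or more in both, each set sorted by value. Ptges (2.25-fold), Ptgs2 (1.90-fold) and Ltc4s (1.54-fold) lie above the other enzymes, and most stromal markers lie higher still.

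Another 62 genes of these pathways, in 8 lists by role, were set beside the enzymes. By the 4-fold rule 15 of the 46 tested against the macrophage library were higher in bmEos, where 13.4% of all genes were, and 3 were lower, where 5.68% were. Against the neutrophil library 11 of the 46 tested were higher, where 15.8% of all genes were, and 9 were lower, where 8.96% were. The single lists held 3 to 9 tested genes each, and the same shares of all genes are the background of every list. Of the 44 tested in both comparisons 7 were higher in both, and the share of all genes higher in both was not computed. The values of these genes against the neutrophil library are in CPM and were not scaled by housekeeping genes.

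Upstream, 3 of 6 phospholipase and fatty acid handling genes tested were higher than in the macrophage library, and 0 of 6 passed the rule against the neutrophil library. Pla2g4a, the cytosolic phospholipase that frees arachidonic acid, stood at 112 and 116 CPM in bmEos, against 9.09 CPM in the macrophage library and 129 CPM in the neutrophil library. Acsl4, which couples arachidonic acid to coenzyme A, stood at 258 and 275 CPM in bmEos, against 46.3 CPM in the macrophage library and 178 CPM in the neutrophil library. Pla2g5, a secreted phospholipase, stood at 1.64 and 1.05 CPM in bmEos, against 0.224 CPM in the macrophage library and 0.626 CPM in the neutrophil library. Of the other lipoxygenases, 2 of 3 tested were higher than in either outside library. Alox12e stood at 15.4 and 18.7 CPM in bmEos, against 0 counts in the macrophage library and 3.29 CPM in the neutrophil library. With 0 counts set to 3 counts, it was 549-fold and 668-fold higher in bmEos than in the macrophage library. Alox8 stood at 4.52 and 2.10 CPM in bmEos, against 0.0748 CPM in the macrophage library and 0 counts in the neutrophil library.

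Downstream of leukotriene C4, the gamma-glutamyl transferase genes Ggt1 and Ggt5, whose products cut it to leukotriene D4, were highest in the neutrophil library. Ggt1 had 0 counts in both bmEos libraries, against 0.00935 CPM in the macrophage library and 190 CPM in the neutrophil library. With 0 counts set to 3 counts, the neutrophil library was 2557-fold and 1932-fold higher. Ggt5 stood at 4.34 and 3.38 CPM in bmEos, against 2.42 CPM in the macrophage library and 217 CPM in the neutrophil library. Dpep2, a dipeptidase that can turn leukotriene D4 into leukotriene E4, stood at 53.2 and 62.9 CPM in bmEos, against 288 CPM in the macrophage library and 88.6 CPM in the neutrophil library. Mgst3, a microsomal glutathione transferase, stood at 16.7 and 15.3 CPM in bmEos, against 41.3 CPM in the macrophage library and 2.66 CPM in the neutrophil library. Of this list of processing and export genes 1 of 8, Mgst2, was higher and 1 lower than in the macrophage library. Against the neutrophil library 1 of 9 was higher and 3 lower. Mgst2, another microsomal glutathione transferase, was named after its values were seen. It stood at 7.67 and 7.12 CPM in bmEos, against 1.21 CPM in the macrophage library and 33.5 CPM in the neutrophil library. Its folds over the macrophage library were 6.36 and 5.90, the opposite direction to Ltc4s.

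Among the other prostanoid synthases 1 of 7 was higher and 1 lower than in the macrophage library, and 2 of 7 were higher and 2 lower than in the neutrophil library. Cbr1, a carbonyl reductase, stood at 9.63 and 9.06 CPM in bmEos, against 44.2 CPM in the macrophage library and 12.8 CPM in the neutrophil library. Ptges2, a prostaglandin E synthase of another family than Ptges, stood at 9.06 and 9.58 CPM in bmEos, against 14.0 CPM in the macrophage library and 51.6 CPM in the neutrophil library. Cbr3, a carbonyl reductase close to Cbr1, stood at 5.61 and 5.81 CPM in bmEos, against 16.6 CPM in the macrophage library and 38.2 CPM in the neutrophil library. Prxl2b, a prostaglandin F synthase, stood at 6.95 and 7.02 CPM in bmEos, against 23.9 CPM in the macrophage library and 0.469 CPM (3 counts) in the neutrophil library. Akr1c18, named after its values were seen, was higher in bmEos by the rule in both comparisons. It stood at 8.14 and 5.25 CPM in bmEos, against 0.224 CPM in the macrophage library and 0.156 CPM (1 count) in the neutrophil library.

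Of the breakdown genes 2 of 6 were higher and 1 lower than in the macrophage library, and 2 of 5 were higher and 0 lower than in the neutrophil library. Cyp4f18, a hydroxylase that inactivates leukotriene B4 in mouse neutrophils, stood at 788 and 895 CPM in bmEos, against 49.9 CPM in the macrophage library and 183 CPM in the neutrophil library. Hpgd, which inactivates prostaglandins, stood at 0.595 and 0.263 CPM in bmEos, against 58.8 CPM in the macrophage library and 0 counts in the neutrophil library. Slco2a1, a prostaglandin transporter, stood at 26.4 and 11.9 CPM in bmEos, against 1.86 CPM in the macrophage library and 0 counts in the neutrophil library. It was 2.22-fold higher in replicate 1 than in replicate 2.

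Both leukotriene B4 receptor genes were higher in bmEos than in the macrophage library, Ltb4r1 115-fold and 119-fold and Ltb4r2 103-fold and 120-fold. Of the leukotriene and lipoxin receptors, 4 of 5 tested were higher than in the macrophage library, and 2 of 5 were higher and 2 lower than in the neutrophil library. Ltb4r1, the high-affinity leukotriene B4 receptor, stood at 161 and 167 CPM in bmEos, against 1.40 CPM in the macrophage library and 148 CPM in the neutrophil library. Ltb4r2, the low-affinity one, named here after its values were seen, stood at 13.5 and 15.7 CPM in bmEos, against 0.131 CPM in the macrophage library and 0 counts in the neutrophil library. Cysltr1, a receptor of the cysteinyl leukotrienes, stood at 17.1 and 16.5 CPM in bmEos, against 8.30 CPM in the macrophage library and 1.41 CPM in the neutrophil library. Fpr1 and Fpr2 are formyl peptide receptors, of which the second also binds lipoxin A4. They were 28.1-fold and 26.6-fold higher in the neutrophil library than in bmEos replicate 1, and 36.3-fold and 30.4-fold higher than in replicate 2. Both were among the 4 receptors higher in bmEos than in the macrophage library, Fpr1 8.75-fold and 6.76-fold and Fpr2 5.86-fold and 5.14-fold.

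The prostanoid receptors were higher than in the macrophage library in 2 of 6 cases and lower in 0, and against the neutrophil library 1 of 6 was higher and 2 lower. Ptgdr2, the prostaglandin D2 receptor of eosinophils and type 2 lymphocytes, stood at 4.54 and 4.96 CPM in bmEos, against 0.0374 CPM in the macrophage library and 0 counts in the neutrophil library. Ptger4, a prostaglandin E2 receptor, stood at 88.5 and 87.4 CPM in bmEos, against 20.4 CPM in the macrophage library and 23.2 CPM in the neutrophil library. Ptger2, another one, stood at 9.01 and 11.5 CPM in bmEos, against 12.3 CPM in the macrophage library and 76.4 CPM in the neutrophil library. Ptgir, the prostacyclin receptor, stood at 15.1 and 12.7 CPM in bmEos, against 28.7 CPM in the macrophage library and 70.1 CPM in the neutrophil library. Of 5 peroxidase genes that set the peroxide tone for these enzymes, 0 passed the rule against the macrophage library and 1, Gpx1, was higher than in the neutrophil library, at 673 and 757 CPM in bmEos, against 401 CPM in the macrophage library and 109.5 CPM in the neutrophil library.

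**Figure D5:**
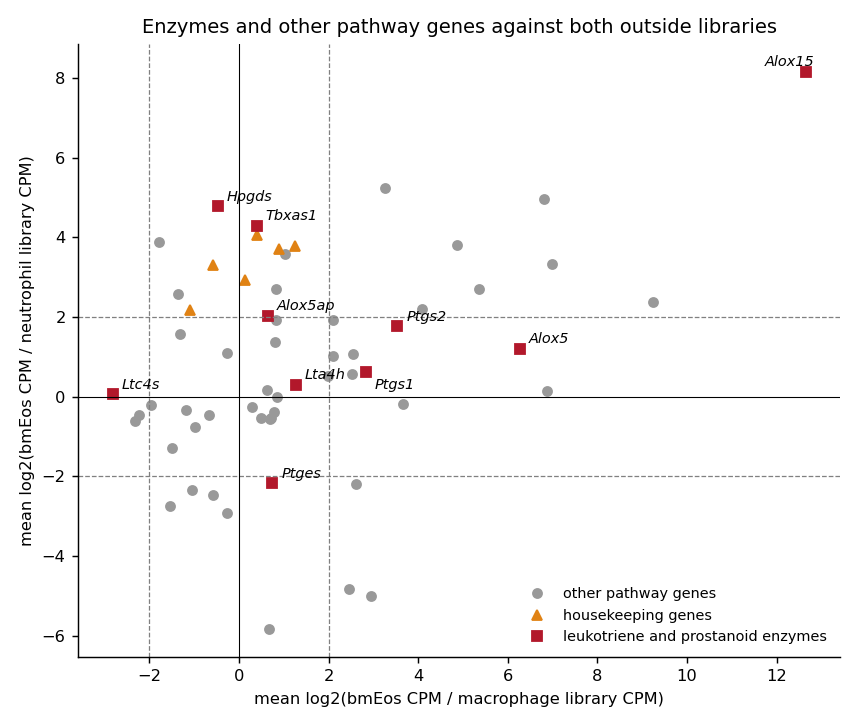
Mean log2 fold of bmEos over the macrophage library (horizontal) and over the neutrophil library (vertical), values under 3 counts set to 3 counts, for the 10 enzymes (red squares), 44 other pathway genes tested in both comparisons (grey circles) and 6 housekeeping genes (orange triangles), with dashed lines at 4-fold. Of the 10 enzymes only Alox15 lies beyond both dashed lines at the upper right. There 7 other pathway genes lie too, and the share of all genes there was not computed. Ltc4s lies at the left, and the housekeeping genes lie above 4-fold on the vertical axis and within 4-fold on the horizontal one.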

How the data were processed

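Read counts per gene, whole and not normalized, were deposited by the authors as a table for every library: 2 of bmEos and 2 from other studies. Tools listed in the notes of the submitters, with no roles, are STAR 2.5, featureCounts, Trim Galore 0.4.2, FastQC 0.11.7 and Picard 1.89, and the genome build listed is mm9. The sources used here do not state the strand setting of the counting or whether duplicate reads were removed. Reads of overlapping genes (in GRCm38.p6, used for names only, Alox15, Alox5, Tbxas1 and Ptges have some) or of close copies, such as other lipoxygenases, are therefore uncertain. Both outside files hold 26 gene names turned into dates, none of a member, which left 25075 genes to compare.

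Counts were divided by the library total (CPM). Genes with 1 CPM or more in at least 1 library of a comparison were called at 4-fold in both replicates, with values under 3 counts set to 3 counts. This rule was tried on simulated counts with planted changes, drawn for every library from a common profile. They hold no difference of study or preparation, so they cannot show how the rule does with the outside libraries. Other scalings were TMM and the upper quartile (edgeR 4.0.16), size factors (DESeq2 1.42.0, R 4.3.3) and 6 housekeeping genes chosen after seeing the data. Intervals are at 95%, Poisson for a level and exact binomial for a ratio of counts. Scripts ran in Python 3.11.15 with pandas 2.3.3, numpy 2.4.6, scipy 1.17.1 and matplotlib 3.10.9.

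The members and lists were chosen with earlier results of these data known. Genes named were the members, the 5 genes most like Alox15 and, for each pathway list, up to 4 genes past the rule with the highest CPM in any library. Ltb4r2, Mgst2 and Akr1c18 were added after their values were seen. Peak lists were not used here.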

Additional observations from a re-analysis of the deposited data

How the results depend on the processing

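Against the macrophage library, 4 members higher and 1 lower were counted under every scaling tried, with no minimum level or one of 5 CPM, and without either replicate. A 2-fold rule gave 5 higher and an 8-fold rule 3 higher and 0 lower. Against the neutrophil library, TMM, DESeq2 size factors and the upper quartile each gave 4 higher, with Alox5ap added, and 0 lower. The 2-fold rule gave 6 higher and 1 lower (Ptges), and scaling by 6 housekeeping genes, chosen after seeing the data, gave 1 higher and 5 lower. This last scaling moved the median log2 fold of all genes by -3.33, so its calls are relative to that shift. TMM, DESeq2 size factors and the upper quartile moved it by 0.31, 0.18 and 0.44 against the neutrophil library, and by -0.22, -0.10 and -0.04 against the macrophage library. Leaving out each replicate gave 0 to 1 member (Ptges, without replicate 1) lower and 4 higher than the neutrophil library, with Alox5ap or Ptgs2 added. The balance of Ltc4s over Lta4h against the neutrophil library ran from -0.53 without replicate 1 to 0.038 without replicate 2, which turned its direction, beside -0.25 with both. The other 11 shifts in balance kept theirs. No paired analysis was possible because the results come from no test. Depth limits Ltc4s and Hpgds in the neutrophil library, at 12 counts each.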
